A study of Mus musculus with 2 samples.

Results

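Bcl11b and the long stretch of DNA downstream of it were examined in early thymic progenitors (ETPs), the most immature thymus cells that can still become T cells. The members are all accessible regions (ATAC-seq peaks) with their centre in mm9 chr12:108000001-109400000, a region of 1.4 Mb. They are 26 of the 85764 peaks of the wild-type library and 68 of the 69896 peaks of the double-knockout library. The peaks were chosen by position alone, but the region itself was selected on the overlap of the 2 lists: earlier results had shown an excess of double-knockout peaks there, so its peak counts are a description and were not tested. The gene lies near the right end of the region, at about 109.15 to 109.24 Mb on the minus strand. Lower coordinates are therefore downstream of the gene and higher coordinates upstream of it.

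ATAC-seq marks accessible DNA by the insertion of sequencing adapters with a transposase. Both libraries came from ETPs of the fetal thymus on the C57BL/6 strain, sorted as CD4-, CD8- and lineage-negative, CD44+, CD25- and Kit+ cells. The wild-type library has no further allele in the labels. The double-knockout library came from mice with floxed E2A and HEB alleles and IL7R-Cre, in which Cre acts in cells that have expressed the IL-7 receptor gene, and its cells were also sorted for YFP, a marker absent from the wild-type sort. Genotype and this difference in the gate cannot be told apart. The age of the fetuses, the number of animals and whether cells were pooled are not stated in the labels. Loss of E2A and HEB, and the identity of the sorted cells by marker genes, were not checked here. There was 1 library per genotype, so no difference has a replicate check, and the intervals below cover counting error over peaks only.

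Bcl11b is a zinc finger transcription factor that T cell progenitors switch on when they commit to the T cell lineage, and it keeps committed cells from taking up natural killer and other innate fates. Group 2 innate lymphoid cells also express it. The gene is known to be controlled by a distal enhancer far downstream in a gene desert, and a non-coding RNA transcribed at that enhancer takes part in bringing it to the promoter. E2A and HEB belong to the E proteins, a group of basic helix-loop-helix factors that bind E-box sequences and act in the early T cell programme. In the order of the RefSeq gene table (GRCm38.p6), the next protein-coding gene upstream of Bcl11b is Setd3, with no listed gene between them. Downstream, only 3 long non-coding RNA genes and 2 pseudogenes are listed between Bcl11b and the predicted gene Gm52008.

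The promoter of Bcl11b is shown because the strongest peak of the region in both libraries lay beside the gene start. The RefSeq table gives these 250 bases before the start in build GRCm38.p6, chr12:108003415-108003664 on the minus strand. That build differs from the mm9 of the peaks, so the position of the peak within or beside these bases is not known, and the coordinates must not be set against those of the peaks. Capitals mark the match to CTTTGA, a core of the TCF/LEF motif.
Bcl11b promoter: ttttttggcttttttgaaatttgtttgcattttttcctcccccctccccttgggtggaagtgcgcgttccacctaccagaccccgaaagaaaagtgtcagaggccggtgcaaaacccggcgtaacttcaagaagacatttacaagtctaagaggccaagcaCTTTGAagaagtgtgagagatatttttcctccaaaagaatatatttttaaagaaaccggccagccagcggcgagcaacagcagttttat
The window held 1 match to CTTTGA, starting at base 162 from the 5′ end, and 13.8% of the 32851 promoters in the table hold this motif on either strand. It held no match to the general E-box CANNTG, which 66.2% of the promoters hold, and hence none to its forms CAGCTG (13%) and CAGGTG (17.2%). It also held none to TGTGGT, a core of the Runx motif (14%), to AGATAA, bound by GATA factors (9.99%), or to TGGGAA, a core of the RBPJ motif of Notch signalling (21.6%). These are matches of letters in this window, with both strands searched, and not binding sites.

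In the double knockout, peaks were found along nearly the whole length of the desert, where the wild type had few. Of the 68 double-knockout peaks in the region, 48 (70.6%, exact Clopper-Pearson 95% interval 58.3 to 81.0%) overlapped no wild-type peak by even 1 bp, against 25.3% of all double-knockout peaks in the genome. Of the 26 wild-type peaks, 6 (23.1%, 8.97 to 43.6%) overlapped no double-knockout peak, against 39.1% of all wild-type peaks. The other 20 peaks of each list formed 20 shared pairs. When only the upper 50% of each list by score was set against the whole other list, 7 of 21 double-knockout peaks (33.3%) and 0 of 9 wild-type peaks (0%) had no partner, against 14.7% and 20.4% over the genome. Since the region was chosen for these counts, nothing is read from their distance to the background.

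**Figure D1:**
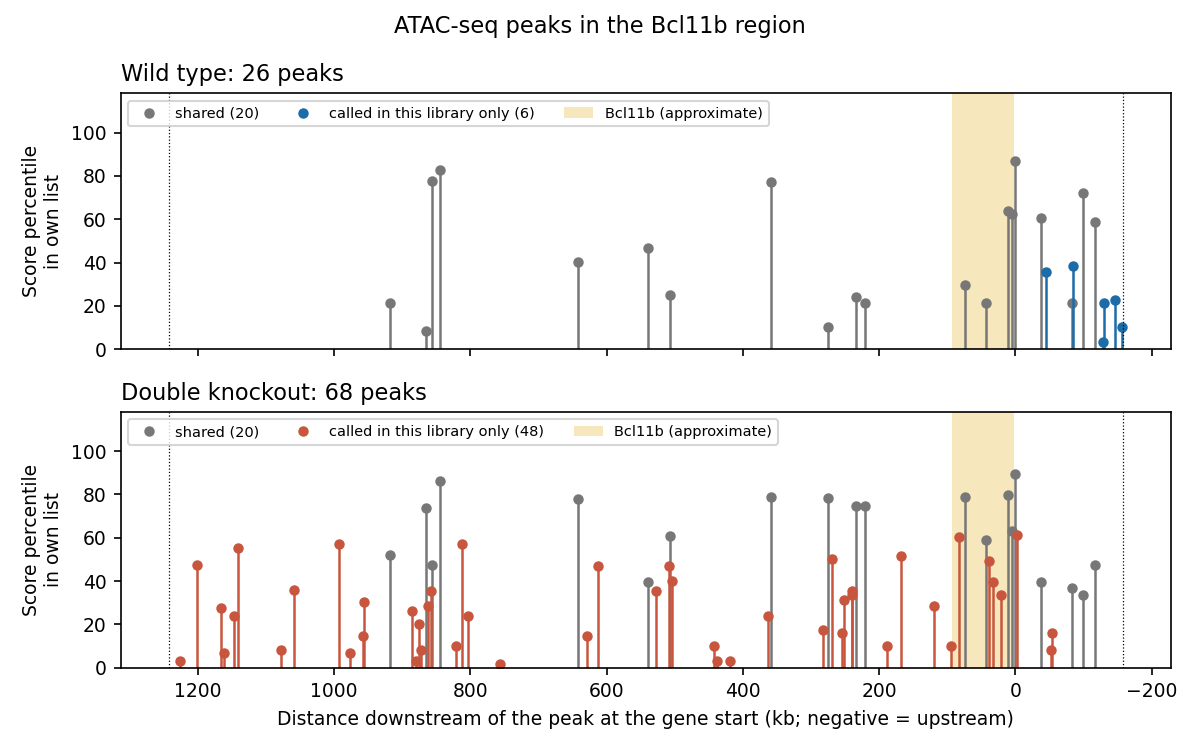
Each stem is a peak, placed on the x axis by its distance in kb downstream of the peak nearest to the gene start and on the y axis by the percentile of its score within its own library's list. Grey stems are peaks shared by overlap and coloured stems those of 1 library; dotted lines are the bounds of the region. The 6 wild-type-only peaks all lie upstream of the gene, while 41 of the 48 double-knockout-only peaks lie downstream of it.

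The classes were divided by the gene. Downstream of it, all 11 wild-type peaks were shared, while 41 of 52 double-knockout peaks (78.8%, interval 65.3 to 88.9%) were called in the double knockout alone. Within the gene bounds, all 4 wild-type peaks were again shared, and 4 of 8 double-knockout peaks were not. On the upstream side the wild-type share was the higher one. There 6 of 11 wild-type peaks (54.5%, 23.4 to 83.3%) and 3 of 8 double-knockout peaks (37.5%, 8.52 to 75.5%) were not shared. Over the genome the shares were 39.1% and 25.3%, in the same order and inside these intervals. With 0 of 11 wild-type-only peaks downstream, the exact interval still allows a share of up to 28.5%. The region was chosen on these counts, so none of these intervals serves as a test against the genome shares.

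Per 100 kb, the downstream stretch held 0.957 wild-type and 4.52 double-knockout peaks, or 4.73 double-knockout peaks per wild-type peak. The wild-type density there was low: the 1400 kb before the region, a flank as long as the region itself, held 4.29 peaks per 100 kb and the 1400 kb after it 5.79. The double-knockout density of the desert lay between the 3.43 and 5.0 of those flanks. Since the region was chosen for its excess of double-knockout peaks, nothing is read from these densities against those of the flanks. The flanks had 0.800 and 0.864 double-knockout peaks per wild-type peak, the rest of chromosome 12 had 0.804 and the genome 0.815. Over the whole region there were 2.62 double-knockout peaks per wild-type peak, a ratio that the choice of the region made high.

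**Figure D2:**
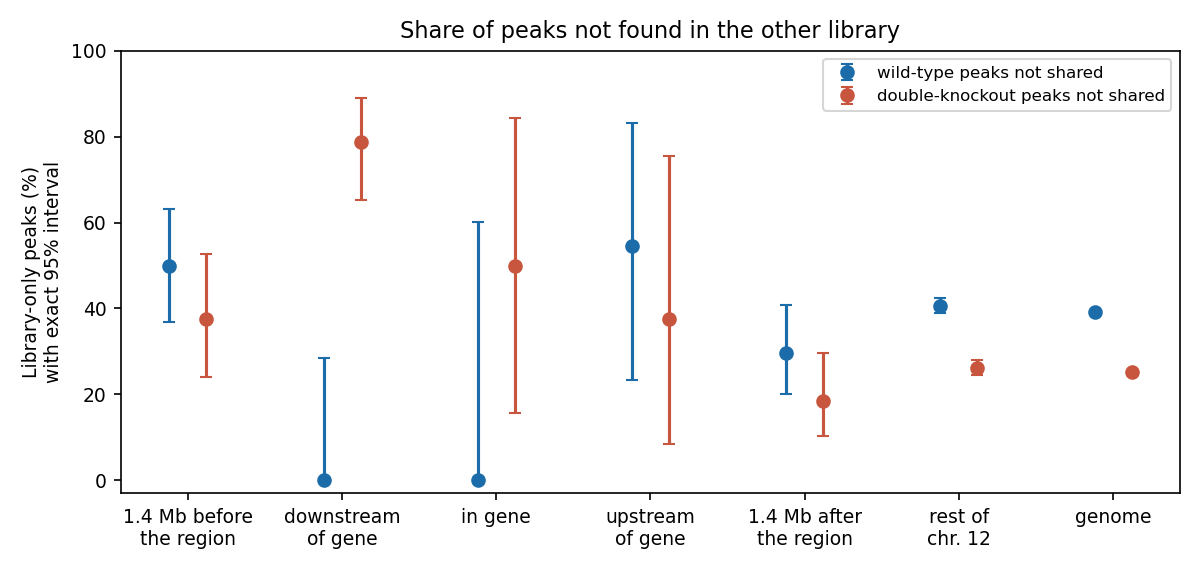
Points are the percent of each library's peaks that overlap no peak of the other library, with exact 95% intervals for counting error, in the stretches of the region, its flanks, the rest of chromosome 12 and the genome. Downstream of the gene the double-knockout point stands at 78.8% and the wild-type point at 0; in the flanks, the rest of the chromosome and the genome, the wild-type points are the higher ones.

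In blocks of 100 kb, the double knockout had peaks in 13 of the 14 blocks and the wild type in 9. The first 3 blocks (108000001 to 108300000) held 5, 3 and 4 double-knockout peaks and no wild-type peak. The block from 108300001 to 108400000 had the most peaks of the desert in both lists, with 10 in the double knockout and 4 in the wild type. It was followed by 4 double-knockout peaks and no wild-type peak between 108400001 and 108500000. The block from 108500001 to 108600000 held no peak of either list. Over the next 5 blocks, up to 109100000, the wild type had 1 or 2 peaks each and the double knockout 3 to 6. The last block (109300001 to 109400000), upstream of the gene, was the only block with more wild-type than double-knockout peaks, at 8 against 3.

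**Figure D3:**
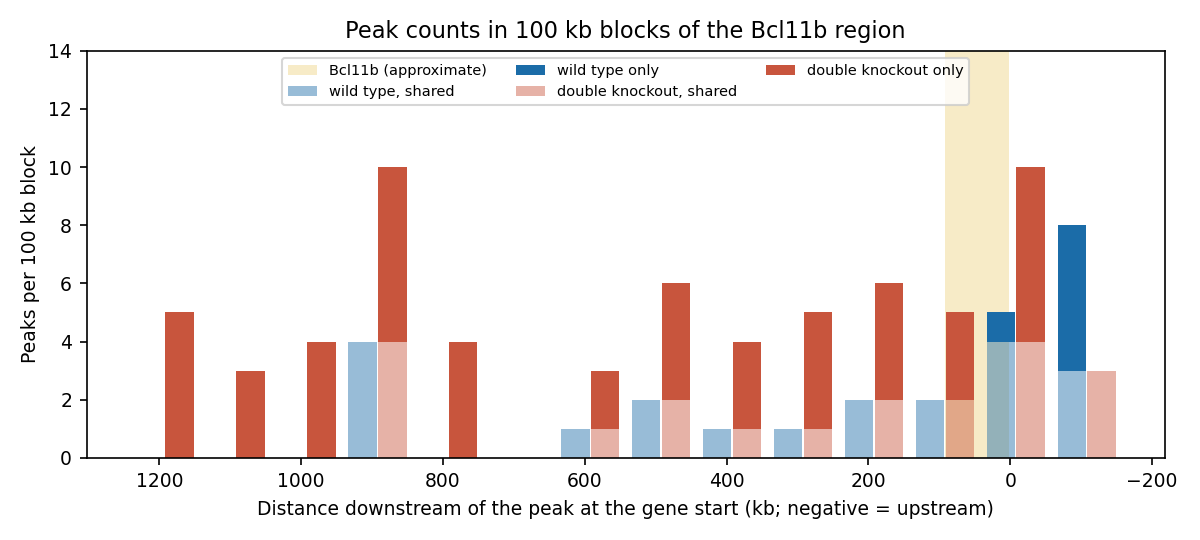
Bars are the number of peaks per 100 kb block of the region in the wild type (blue) and the double knockout (red), with shared peaks in the paler shade, against distance in kb downstream of the peak at the gene start. In 12 of the 14 blocks the double-knockout bar is the taller; the exceptions are the empty block and the last block upstream of the gene.

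The peaks of the region with the highest scores in either list were shared, and their places in the 2 lists were close for some and apart for others. Strong peaks were mostly shared over the genome as well. In the upper 25% by score, 18800 wild-type peaks were shared and 2583 were not. For the double knockout these counts were 15702 and 1756. Scores are the authors' values of unknown unit and were ranked only within a list; percentiles count from the weakest peak of that list. The peak nearest to the gene start (109242331 to 109242481) scored 23.1 in the wild-type list, at percentile 86.9, and 33.0 in the double-knockout list, at percentile 89.5. Its centres in the 2 lists were 1 bp apart. It lay just beyond the approximate gene start, which is known only to about 10 kb, so it was counted as upstream. It was the highest peak of the region in both libraries.

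The pair that came second in both lists lay 844 kb downstream of that start peak, in the block of the desert richest in peaks. It scored 19.1 in the wild type (108398375 to 108398525, percentile 82.6) and 27.2 in the double knockout (108398477 to 108398627, percentile 86.2). Its centres were 102 bp apart, the largest shift among the 20 pairs, which had a median shift of 13 bp against 10 bp over the genome. The position of the known distal enhancer was not matched to these peaks. By the mean percentile of both lists, the third pair lay 359 kb downstream (108883756 to 108883906 in the wild type) and scored 15.7 and 19.0, at percentiles 77.3 and 78.9. Choosing by a mean over both lists favours pairs that are high in both. The third highest peak of the wild-type list alone (108386731 to 108386881) stood at percentile 77.7, and its partner at 47.4. The third highest of the double-knockout list alone (109231354 to 109231504) stood at percentile 79.8, and its partner at 63.7. Closeness in rank was thus not a property of all strong peaks of the region.

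Most of the other shared peaks downstream of the gene were weak in the wild-type list and of middle to high rank in that of the double knockout. Because the lists differ in length, pairs were also ranked among the 52206 shared pairs of the genome, which gives both libraries the same number of ranks. On that scale 16 of the 20 pairs ranked higher in the double knockout by any amount, against 53.1% of all pairs. A difference of at least 10 points in the double-knockout direction was found in 11 of 20 pairs, against 23.7% of all pairs, and of at least 10 points in the other direction in 3, against 21.5%. Downstream of the gene the median rank was 12.6 in wild-type and 69.6 in double-knockout ETPs (11 pairs). Over all pairs of the genome both medians are near 50 by construction. The region was chosen on peak calls of the same libraries, so these ranks, like the counts, are a description.

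The widest difference was at 275 kb downstream (108967640 to 108967790), where the score was 3.72 in wild-type and 18.6 in double-knockout ETPs. Its rank among shared pairs was 3.87 in wild-type and 73.8 in double-knockout ETPs. It was thus one of the weakest shared peaks of the wild-type list and in the upper part of the double-knockout list. At 865 kb downstream (108377245 to 108377395), near the second strongest pair of the region, the scores were 3.61 and 15.5 and the ranks 3.20 and 68.7. Between the gene and that distal part, neighbouring pairs at 233 kb (109008838 to 109008988) and 220 kb (109022166 to 109022316) had wild-type scores of 4.82 and 4.60 and the same double-knockout score of 16.0. Their ranks were 11.8 and 10.1 in wild-type and 69.6 in double-knockout ETPs. The pair at 642 kb (108600386 to 108600536) scored 6.57 and 18.2, with ranks of 25.1 and 73.2. At these 5 places the double-knockout rank lay in a narrow range, from 68.7 to 73.8.

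Smaller differences made up the rest of the desert. The pair at 507 kb (108735273 to 108735423) had ranks of 12.6 and 54.5, and the pair farthest from the gene, at 918 kb (108324566 to 108324716), had ranks of 10.1 and 44.9. The pair at 539 kb (108703056 to 108703206) hardly differed, with scores of 7.45 and 6.37 and ranks of 31.2 and 32.2. A single downstream pair ranked lower in the double knockout. It lay at 856 kb (108386731 to 108386881), scored 15.9 in wild-type and 7.54 in double-knockout ETPs, and had ranks of 67.4 and 40.1. The pairs at 865, 856 and 844 kb therefore differed among themselves: 1 ranked far higher in the double knockout, 1 lower, and 1 stood at similar places in both.

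All 4 pairs within the gene bounds ranked higher in the double knockout. The pair in the part of the gene far from its start (109168898 to 109169048, 73.4 kb from the start peak) scored 5.37 and 18.9, with ranks of 15.9 and 74.2. The pair 43.0 kb from the start peak scored 4.60 and 9.87, with ranks of 10.1 and 52.2. Closer to the start, at 11.0 kb, the scores were 10.7 and 19.7 and the ranks 49.9 and 75.4. The pair at 5.27 kb differed least, with scores of 10.4 and 11.0 and ranks of 48.4 and 56.9. Within the gene the differences were thus smaller near the start than in the distant part. Whether these peaks lie in exons or introns was not determined, since no mm9 annotation was used here.

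None of the 5 upstream pairs, the start peak among them, was 40 or more points higher in the double knockout. Only 2.93% of all shared pairs of the genome were, so nothing is read from this. The pair at 99.3 kb upstream (109341654 to 109341804) scored 13.4 in wild-type and 5.63 in double-knockout ETPs, with ranks of 60.3 and 26.5, the largest difference in the wild-type direction among the 20. At 37.6 kb upstream (109279897 to 109280047) the scores were 9.97 and 6.37 and the ranks 46.2 and 32.2. The pair at 117 kb (109359634 to 109359784) had ranks of 43.8 and 40.1, and the pair at 82.8 kb (109325115 to 109325265) had ranks of 10.1 and 29.9. The change in direction along the chromosome, from higher double-knockout ranks downstream and in the gene to mixed ranks upstream, followed the same line as the library-only peaks. It rests on 5 upstream pairs and was not tested.

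**Figure D4:**
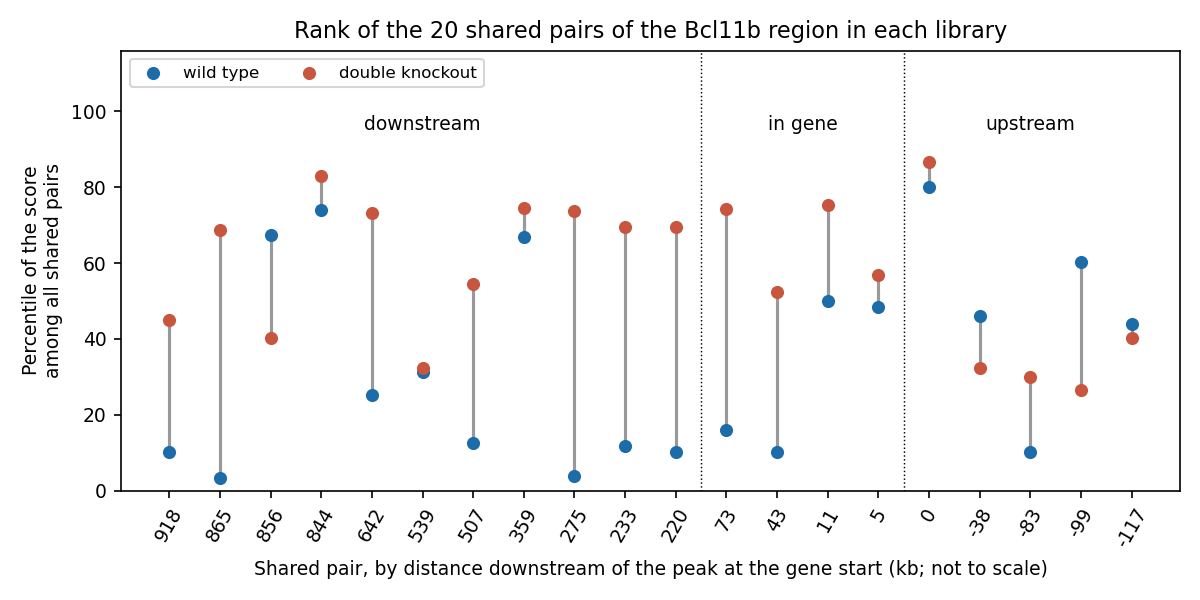
Each column is a shared pair of the region in genomic order, labelled by its distance in kb downstream of the peak at the gene start; points are its percentile among all shared pairs of the genome in the wild type (blue) and the double knockout (red). The red point is higher in 10 of 11 downstream pairs, in 4 of 4 pairs in the gene and in 2 of 5 upstream pairs.

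Weak wild-type peaks have more room above them than below, and this was measured over the genome. Among the 12896 shared pairs with a wild-type rank of 25 or lower, 45.6% ranked at least 10 points higher in the double knockout and 9.29% at least 40 points higher. In the Bcl11b region 9 pairs had such a low wild-type rank. All 9 were at least 10 points and 7 at least 40 points higher, and their median difference was 57.8 points, against 8.02 points over the genome. Over pairs of any wild-type rank, 8 of the 20 were at least 40 points higher, 6 of them downstream and 2 in the gene, against 2.93% in the genome. By percentiles of the whole lists, which differ in length, 5 of the 20 were at least 40 points higher. The limits of 10, 25 and 40 points were chosen after the values were seen. The region was also chosen for its excess of double-knockout peaks, and peak calls and scores come from the same libraries. These rank differences are thus not independent of that choice, and they were not tested.

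**Figure D5:**
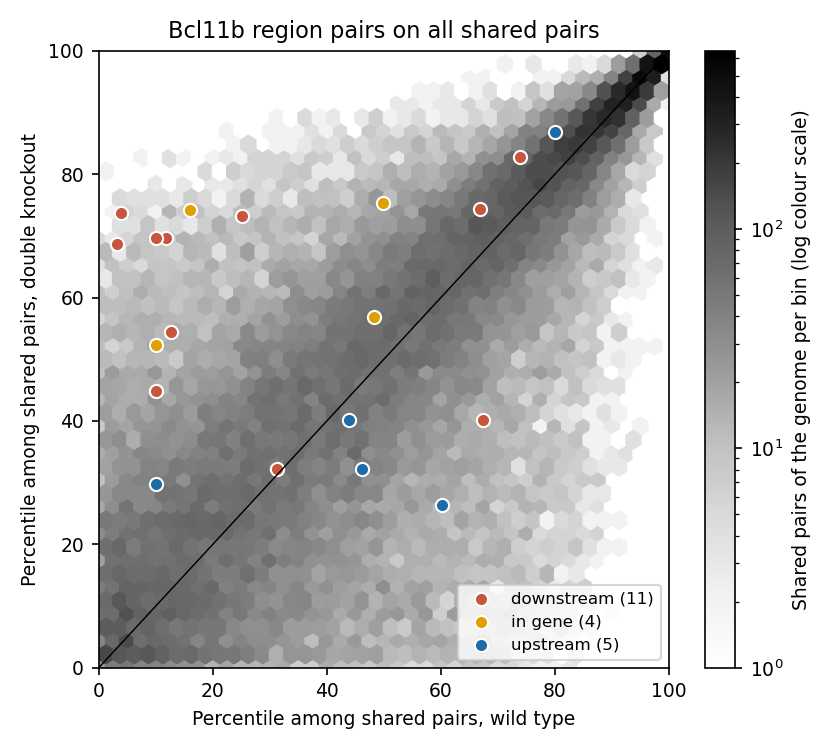
Percentile among all shared pairs in the wild type (x) against the double knockout (y): grey hexagons count the 52206 pairs of the genome on a log colour scale, and points are the 20 pairs of the Bcl11b region. Of the 15 downstream and in-gene pairs, 9 sit to the upper left of the diagonal, at wild-type percentiles under 26 and double-knockout percentiles above 44, while the start peak lies close to the diagonal at 80.0 and 86.8.

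The peaks called in the double knockout alone were weaker than the shared peaks of the same library. Their scores ran from 3.08 to 10.5 with a median of 4.94 (percentile 26.9 of the list), against a median of 13.3 (percentile 68.6) for the 20 shared peaks. Of the 48, 7 were in the upper 50% of the list and none in the upper 25%. Over the genome, 5130 of 17690 double-knockout-only peaks were in the upper 50% and 1756 in the upper 25%. The median score over the genome was 5.31 (percentile 30.5) for double-knockout-only peaks and 9.34 (percentile 56.7) for shared peaks of that list. Lower scores of double-knockout-only peaks were thus not particular to the region. The depth of neither library is known, so a weak region present in both but missed in the wild type cannot be told apart from one accessible only in the double knockout.

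The double-knockout-only peaks mostly stood far from any wild-type peak. None of the 48 lay within 500 bp of one, against 6225 of 17690 double-knockout-only peaks over the genome. The nearest wild-type centre was a median of 21.2 kb away, against 2.01 kb over the genome. There were 41 of the 68 double-knockout peaks with no wild-type centre within 5 kb, against 8.74% of all double-knockout peaks. Downstream of the gene this distance had a median of 31.1 kb and reached 205 kb, since the wild type had no peak between the left bound and 108324566. The longest wild-type interval between neighbouring downstream peaks was 202 kb, and the longest in the double knockout was 115 kb, with medians of 46.9 and 13.4 kb. Since the region was chosen for its excess of double-knockout peaks, long distances to wild-type peaks restate that choice. Nothing is read from their difference to the genome.

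The strongest peak called in the double knockout alone lay 2.13 kb upstream of the start peak (109244462 to 109244612), with a score of 10.5 at percentile 61.4. The next lay within the gene, 82.4 kb from the start peak (109159927 to 109160077), with a score of 10.2 at percentile 60.2. The following 3 were in the desert, at 993 kb (108249765 to 108249915, score 9.45), 812 kb (108430720 to 108430870, score 9.45) and 1141 kb (108101141 to 108101291, score 9.02). They stood at percentiles 55.2 to 57.2, and their nearest wild-type centres were 74.8, 32.3 and 205 kb away. The strongest double-knockout-only peaks were thus spread over the start, the body and the far desert, and not gathered in a single place. The other 3 in the gene (109203037 to 109203187, 109209706 to 109209856 and 109220617 to 109220767) scored 7.86, 6.37 and 5.63. The double-knockout peak nearest to the approximate gene end (109147149 to 109147299) lay just downstream of it. It was called in that library alone and scored 3.61.

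Some double-knockout peaks lay close together. Joining peaks of either list that were at most 10 kb apart, a limit set after the values were seen, the longest run with at least 3 peaks of 1 library covered 30.2 kb (108356666 to 108386881, 856 to 886 kb downstream). It held 8 double-knockout peaks, 6 of them without a wild-type partner, and 2 wild-type peaks. The second strongest pair of the region lay just beyond this run on the side of the gene. A further run of 17.7 kb (108421640 to 108439318) held 3 double-knockout peaks and none of the wild type. The run at the gene start covered 13.3 kb (109231354 to 109244612), with 4 double-knockout and 3 wild-type peaks. In the distal run 6 of 8 double-knockout peaks were not shared, and in the start-side run 1 of 4. Over the genome 25.3% of double-knockout peaks were not shared, close to the start-side run. The region was chosen for its excess of such peaks, so nothing is read from the distal run. Other runs were found in the region and are not listed here.

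The 6 peaks called in the wild type alone were all upstream of the gene and weak. Their scores ran from 3.29 to 6.35, at percentiles 3.28 to 38.6 of the list. The median percentile was 22.2, against 28.6 for all wild-type-only peaks of the genome. Of the 6, the strongest lay 84.3 kb upstream of the start peak (109326581 to 109326731), only 1.46 kb from a double-knockout centre. The next, at 44.6 kb (109286894 to 109287044), scored 6.02. Those at 146 kb (109388093 to 109388243) and 130 kb (109372075 to 109372225) followed, with scores of 4.71 and 4.6. The one farthest from the gene, at 156 kb (109398200 to 109398350), was the peak just inside the right bound, with a score of 3.72 at percentile 10.1. Of the 3 upstream peaks called in the double knockout alone, 2 were also weak, with scores of 3.50 and 4.03, and the third was the peak of score 10.5 beside the gene start.

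At the bounds of the region, the nearest peak outside on the left was a shared pair at 107896579 to 107896729 in the wild type, with percentiles of 47.4 and 41.8. The first double-knockout peak inside (108015877 to 108016027) was called in that library alone, at percentile 3.20, and the first wild-type peak inside was the shared peak at 108324566. Just outside on the right lay a shared pair at 109400367 to 109400517 in the wild type, with percentiles of 16.1 in both lists. The last double-knockout peak inside was the shared peak at 109359633, at percentile 47.4.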

How the data were processed

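Each deposited file is a list of peaks called per library by the authors, 1 wild-type and 1 double-knockout. Per the submitters' processing notes, bcl2fastq 1.8.4, Bowtie and HOMER were among the tools and mm9 was the build. Roles, settings, the peak threshold, read depth, duplicate handling and any shift for the transposase were not given in the sources used here and could change the length of a list. The deposited score of each peak has no stated unit and was used only to rank peaks within a list, as mid-rank percentiles. All peaks of the region are 151 bp wide. Coordinates are 1-based.

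Peaks were shared if they overlapped by at least 1 bp. Shared peaks paired 1 to 1. Gene bounds are approximate. Peaks named are the 20 shared pairs, the 5 strongest library-only peaks per library, those in the gene, and those nearest its ends and the region's bounds. The region, the members and the alternatives were chosen with earlier results of these data known. No test between genotypes was made. The overlap step was tested on simulated data. Python 3.11.15, NumPy 2.4.6, pandas 2.3.3, SciPy 1.17.1 and matplotlib 3.10.9 were used.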

Additional observations from a re-analysis of the deposited data

How the results depend on the processing

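No paired analysis was possible because each genotype had a single library, and leaving out a replicate could not be done either. Classes by overlap of 50% of both peaks, centres within 200 bp, gaps of up to 500 bp or, added after the data were seen, 5 kb, merging of close peaks, a region widened by 100 kb and gene bounds widened by 10 kb kept every count within 1.5 times its value. At equal list lengths the wild type had 22 peaks and the double knockout 68, of which 50 were not shared. In the upper 50% of both lists there were 9 wild-type and 21 double-knockout peaks, with 5 shared in each, 16 double-knockout-only peaks and 44.4% of the wild-type peaks unshared. With the upper 50% of each list set against the whole other list, all 9 wild-type peaks were shared (0 wild-type-only, 0%) and 7 double-knockout peaks (33.3%) were not. Most double-knockout-only peaks of the region are thus in the weaker part of that list. The same held over the genome, where 5130 of 17690 were in the upper 50%. Without its last 200 kb the region held 13 wild-type peaks, all shared (0 wild-type-only, 0%) with 13 of the double knockout. In the strongest 20000 peaks of both lists, added after the data were seen, 4 wild-type and 10 double-knockout peaks were left, with 3 shared in each, 1 wild-type-only and 7 double-knockout-only. By percentiles of the whole lists, 15 of 20 shared pairs stood higher in the double knockout, with 5 at least 40 points higher, and 8 were so by ranks among shared pairs. Smaller counts under stricter score limits follow from fewer peaks. For equal list lengths, the upper 50% of both lists and the strongest 20000 peaks, the shares over the genome were not computed. Nothing is read from the unshared counts at these settings. The depth of both libraries is unknown, which limits what can be said of weak peaks.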
